A study of Mus musculus with 8 samples.

Results

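The insulin-like growth factor (IGF) axis was examined in the mouse heart 24 hours after surgery. It was taken as 10 genes, chosen by name: the ligands Igf1 and Igf2, the receptors Igf1r and Insr, the receptor substrate Irs1, and the binding proteins Igfbp3, Igfbp4, Igfbp5, Igfbp6 and Igfbp7. Each gene was read from its brightest probe on a RefSeq transcript among those well above background on at least 4 of 8 arrays, and all 10 genes had such a probe, out of 15156 named genes that had one. The MI group held 4 adult male C57BL\6 mice with a permanent ligation of the anterior interventricular artery, which causes myocardial infarction (MI). The sham group held 4 adult male mice of the same background that went through the surgery with no ligation. The labels name no engineered allele. Both groups shared anaesthesia and opening of the chest, and per the study's methods also PET imaging with a glucose tracer before the hearts were taken, for which acipimox, a drug that lowers circulating fatty acids, was injected. The RNA came from whole ventricles, so infarcted and remote muscle and every cell type of the heart were measured together.

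IGF1 and IGF2 are secreted growth factors that bind the IGF1 receptor, a tyrosine kinase closely related to the insulin receptor. Both receptors phosphorylate substrates such as IRS1, which recruit phosphoinositide 3-kinase (PI3K) and so activate Akt, a kinase that promotes growth and survival of cardiac muscle and keeps FoxO transcription factors out of the nucleus. In blood and tissue most IGF is held by IGF-binding proteins, which prolong its life and limit its access to the receptor, until proteases such as PAPP-A cut them.

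Each array carried 55681 probes, of which 34038 were well above background on at least 4 arrays. Between 58.6% and 66.4% of spots were well above background. Signals are given on a log2 scale after each array was shifted by its added spike-in RNAs. After that shift the 75th percentile of the arrays still ran from -0.38 in sham replicate 2 and -0.34 in MI replicate 2 to 0.27 in MI replicate 3. Every member was below its group's mean in MI replicate 2, 10 of 10, against 8 of 10 when the arrays were scaled to their 75th percentile instead. In sham replicates 2 and 4 it was 9 of 10 each, against 5 and 9 after that scaling. In MI replicate 3 and sham replicate 1 it was 0 of 10, against 4 and 3. Both scalings are therefore given. The median log2 fold change of all probes, MI over sham, was 0.11 after the spike-in shift and -0.02 after the 75th percentile scaling. Both scalings shift a whole array by a constant. By construction, a member's change relative to that median was therefore the same to 2 decimals under both.

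A single member of the axis, Igfbp3, passed the test after the spike-in shift (limma, adjusted p under 0.05 over all probes), and it rose about 3-fold in MI mice. Over all probes 5.46% passed, 4.73% as higher and 0.729% as lower. The other 9 members had log2 fold changes from -0.39 for Igf1 to 0.44 for Igf2. After this shift none of these passed, at an unadjusted p under 0.05 or by significance analysis of microarrays (q under 5%) either. Their 95% confidence intervals lay between 0.51-fold and 2.33-fold. After the 75th percentile scaling, where 17.5% of all probes passed, 8.7% as higher and 8.84% as lower, 2 members did: Igfbp3 was higher and Insr, the insulin receptor, was lower. The median log2 fold change of the 10 members was 0.23, beside 0.11 over all probes, and 0.09 beside -0.02 after the 75th percentile scaling.

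**Figure D1:**
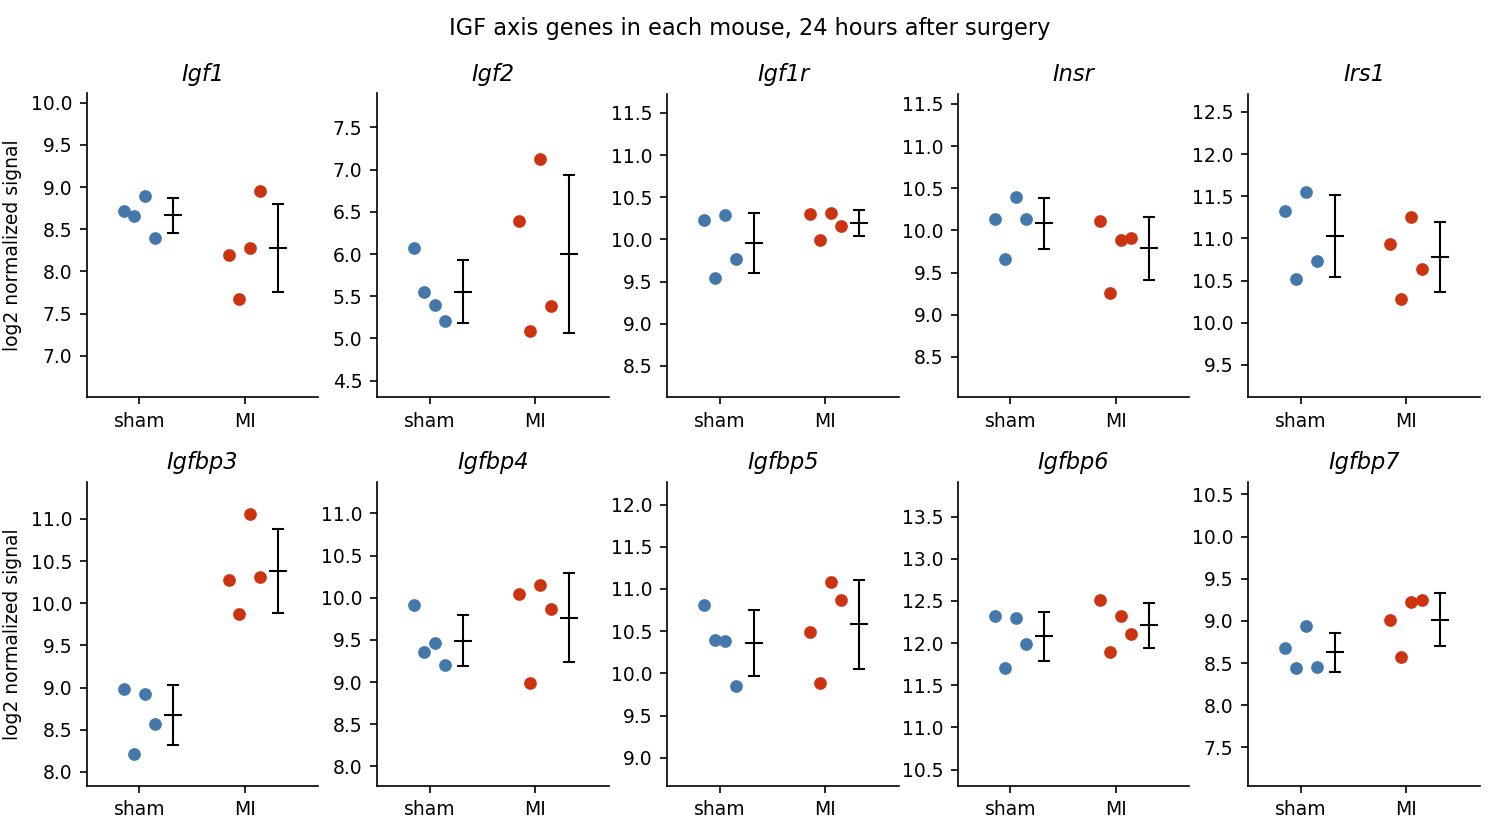
Log2 normalized signal (spike-in shift) of each IGF axis gene in each mouse, with sham mice in blue and MI mice in red, and the mean with its SD as a black dash and bars (n = 4 per group). All panels span the same number of log2 units, and Igfbp3 is the one gene whose 4 MI mice all lie above its 4 sham mice.

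IGFBP3 is the main carrier of IGF in blood and is also made in tissues, where it binds IGF near the cell. The Igfbp3 probe (A_52_P253179) read 8.99, 8.21, 8.93 and 8.57 in sham replicates 1 to 4. It read 10.28, 9.88, 11.06 and 10.31 in MI replicates 1 to 4. The groups did not overlap, and the lowest MI mouse stood above the highest sham mouse. Over all probes, 7.58% had every MI mouse above every sham mouse. The means were 10.38 ± 0.50 and 8.67 ± 0.36 (SD, n = 4 each), a log2 fold change of 1.71 (SE 0.28, limma adjusted p = 0.000919) or 3.27-fold, with a 95% confidence interval from 2.17-fold to 4.91-fold. After the 75th percentile scaling the log2 fold change was 1.57 (SE 0.17, limma adjusted p = 0.000803). Relative to the median of all probes it was 1.60, which by construction is the same under either scaling. The gene also passed the study's further requirement of more than 2-fold, as did 3.87% of all probes in the same direction. By log2 fold change it ranked 463 of 34038 probes, so 1.36% of probes had a larger increase. In bulk tissue a change in the number of cells that make a transcript and a change in transcript per cell cannot be told apart.

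The 8 arrays lay in 2 rows of 1 slide, with 2 MI and 2 sham mice in each row. Within the rows the log2 fold change of Igfbp3 was 1.48 and 1.94. Permuting the group labels of the 8 mice in every possible way gave an exact two-sided p of 0.0286 for Igfbp3, and no lower value can arise with 4 mice per group. The array held 1 probe on Igfbp3, so no other probe could be set beside it.

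The promoter of Igfbp3, the member that rose, is shown to place its start site in sequence. The 250 bases before the start site that RefSeq lists (GRCm38.p6, chr11:7213924-7214173, minus strand) read as follows, 5′ to 3′, with capitals at each match to ACGTG or GCGTG on either strand, the core letters of the hypoxia response element.
Igfbp3 promoter: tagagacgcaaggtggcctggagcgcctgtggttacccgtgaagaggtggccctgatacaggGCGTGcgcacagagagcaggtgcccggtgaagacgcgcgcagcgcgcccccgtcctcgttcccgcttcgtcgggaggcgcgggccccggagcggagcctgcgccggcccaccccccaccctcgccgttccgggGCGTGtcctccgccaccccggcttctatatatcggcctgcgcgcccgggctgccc
This window held 2 such matches, and 38.6% of the 32851 promoters in the table held at least 1. A TATA box (TATAAA or TATATA, either strand) began 30 bases before the start, and 15.6% of all promoters held a TATA box in their window. The window had no GC box (GGGCGG, either strand), which 32.7% of all promoters held. The table listed 12 promoters for 9 of the 10 members, all but Insr. Of these 12 promoters 6 held the hypoxia core, beside the 38.6% of all promoters. They belonged to 6 of the 9 genes, among them Igf1, Igf1r and Irs1, none of which passed the test. A match of letters is a description of the sequence and not a site.

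Of the ligands, neither passed the test. Igf1, which the liver, fibroblasts and macrophages make, read 8.72, 8.66, 8.89 and 8.39 in sham mice and 8.20, 7.67, 8.28 and 8.95 in MI mice, replicates 1 to 4. MI replicates 1 to 3 lay below every sham mouse, and MI replicate 4 lay above every sham mouse. The log2 fold change was -0.39 (SE 0.27, limma adjusted p = 0.523), and -0.52 (SE 0.21, limma adjusted p = 0.128) after the 75th percentile scaling. MI replicate 4 weighed on that value. Without it the log2 fold change after the 75th percentile scaling was -0.73 and passed (limma adjusted p = 0.0126), whereas it did not pass with any other mouse left out, or after the spike-in shift with any mouse left out. The 4 probes of Igf1 gave log2 fold changes of -0.39, -0.32, -0.22 and 0.12 from the brightest to the dimmest, and none passed. Igf2, abundant in the fetus and low in the adult mouse, read 6.07, 5.55, 5.39 and 5.21 in sham mice and 6.39, 5.08, 7.12 and 5.39 in MI mice. MI replicates 1 and 3 were above every sham mouse and MI replicate 2 was below every sham mouse. The log2 fold change was 0.44 (SE 0.37, limma adjusted p = 0.620), the widest error among the 10 members.

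Of the receptors, Igf1r passed under neither scaling and Insr passed as lower after the 75th percentile scaling. Igf1r read from 9.55 to 10.29 in sham mice and from 9.99 to 10.31 in MI mice, with overlapping groups. Its log2 fold change was 0.23 (SE 0.24, limma adjusted p = 0.703), and the 95% confidence interval ran from 0.83-fold to 1.67-fold.

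The brightest of the 3 Insr probes (A_52_P494514) read 10.14, 9.66, 10.39 and 10.14 in sham mice and 10.11, 9.25, 9.88 and 9.91 in MI mice after the spike-in shift, and the groups overlapped. The log2 fold change was -0.29 (SE 0.25, limma adjusted p = 0.632). After the 75th percentile scaling the same probe read 10.05, 10.05, 10.25 and 10.26 in sham mice and 9.88, 9.60, 9.61 and 9.80 in MI mice. All 4 MI mice then lay below all 4 sham mice, as they did for 12.7% of all probes. Insr fell by 0.43 on the log2 scale under that scaling (SE 0.11, limma adjusted p = 0.0326), 1.34-fold lower in MI, where 8.84% of all probes passed as lower. Quantile normalization also called it (limma adjusted p = 0.0288), with 9.27% of all probes lower. In settings chosen after seeing the data, each with the 75th percentile scaling, the call was lost with the row of the slide as a block (limma adjusted p = 0.0517). It was also lost without MI replicate 2, MI replicate 3, sham replicate 2, sham replicate 3 or sham replicate 4, with limma adjusted p between 0.0528 and 0.0941. The other Insr probes gave log2 fold changes of -0.27 and -0.17 after the 75th percentile scaling and -0.14 and -0.03 after the spike-in shift, and neither passed.

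Irs1, the docking protein that couples both receptors to PI3K, read 11.33, 10.52, 11.55 and 10.73 in sham mice and 10.94, 10.28, 11.25 and 10.63 in MI mice. The groups overlapped. The log2 fold change was -0.25 (SE 0.28, limma adjusted p = 0.734), and -0.39 (SE 0.16, limma adjusted p = 0.131) after the 75th percentile scaling, where 3 of 4 MI mice lay below every sham mouse. The dimmer Irs1 probe gave -0.03 and -0.17.

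The binding proteins other than Igfbp3 did not pass the test under either scaling. Igfbp4, which is cut by PAPP-A, read from 9.21 to 9.91 in sham mice and from 8.99 to 10.15 in MI mice (log2 fold change 0.28, SE 0.28, limma adjusted p = 0.696). Igfbp5, which binds the extracellular matrix, read from 9.85 to 10.81 and from 9.88 to 11.08 (log2 fold change 0.22, SE 0.29, limma adjusted p = 0.781). Igfbp6, which prefers IGF2 over IGF1, read from 11.71 to 12.32 and from 11.90 to 12.51 (log2 fold change 0.13, SE 0.24, limma adjusted p = 0.860). These 3 genes overlapped widely between the groups, and the sign for Igfbp6 turned after the 75th percentile scaling (-0.00461). Igfbp7, a secreted relative that binds IGF weakly and is made by vessels, read 8.68, 8.44, 8.93 and 8.45 in sham mice and 9.01, 8.57, 9.22 and 9.25 in MI mice. Of its MI mice 3 lay above every sham mouse, and the log2 fold change was 0.39 (SE 0.24, limma adjusted p = 0.459), or 0.25 (SE 0.12, limma adjusted p = 0.178) after the 75th percentile scaling.

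Several of these members differed in sign between the rows of the slide, which held 2 mice of each group. The log2 fold change of Igfbp5 was -0.42 in row 1 and 0.86 in row 2, that of Igfbp4 was -0.12 and 0.67, and that of Igf2 was -0.07 and 0.95. Insr was lower in MI in both rows (-0.22 and -0.37), as was Igf1 (-0.76 and -0.03), and Igfbp7 was higher in both (0.23 and 0.54). These differences between rows were not tested.

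**Figure D2:**
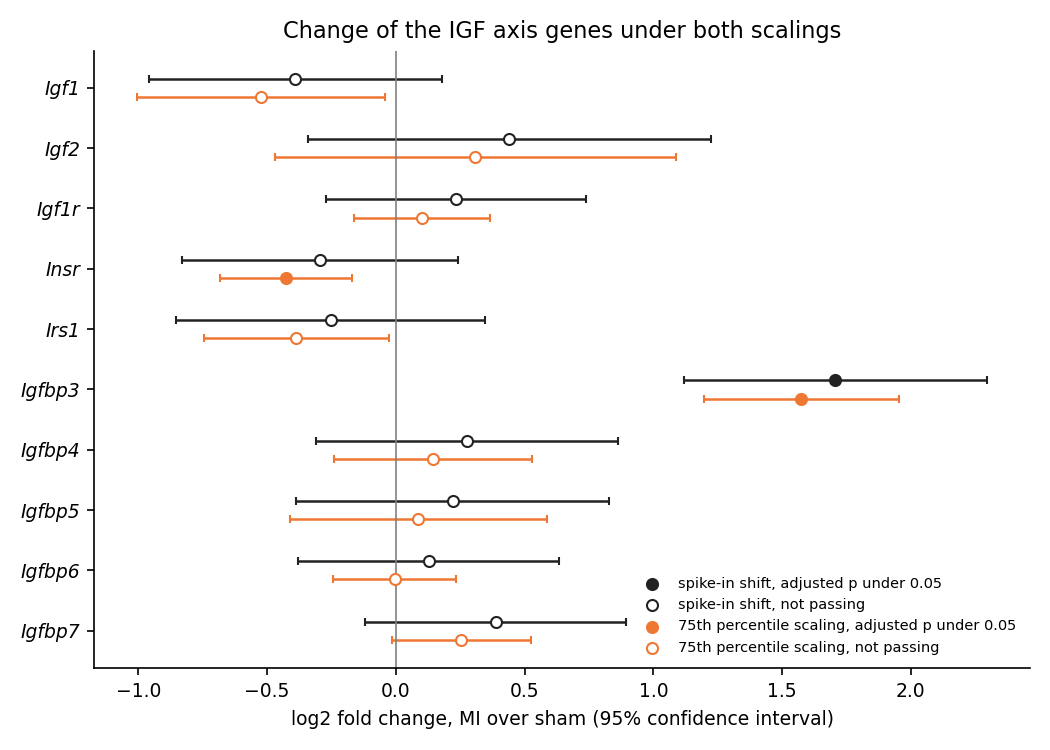
Log2 fold change, MI over sham, of each IGF axis gene with its 95% confidence interval (limma, 4 mice per group), after the spike-in shift (black) and after scaling to the 75th percentile (orange). Filled points passed at adjusted p under 0.05: Igfbp3 under both scalings and Insr under the 75th percentile scaling alone.

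Around the 10 members, 75 other genes of the pathway were listed in 6 groups, and 70 of them had a probe well above background on at least 4 arrays. After the spike-in shift 4 were higher and 1 was lower in MI, or 7.14% of the 70. Among the higher genes Stc1 was retained through its MI arrays alone, and 3 higher and 1 lower of the other 69 make 5.80%, near the 5.46% of all probes. With the 75th percentile scaling 10 were higher and 11 lower, or 30% beside 17.5%. Without Stc1, 9 of the other 69 were higher under that scaling, and the share that passed was 29.0%.

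Among 12 other binding proteins, proteases and clearance genes, 1 was higher and none was lower. It was Stc1, stanniocalcin 1, a secreted inhibitor of PAPP-A. Stc1 read 4.42, 3.40, 5.24 and 4.86 in MI mice, all well above background, whereas the sham mice, at 2.18, 3.11, 3.89 and 2.56, were not well above background on any array. Their measured values overlapped, since MI replicate 2 was below sham replicate 3. On each sham array the larger of the Stc1 signal and the lowest signal well above background of any probe was taken. Against the mean of these values Stc1 was 2.73-fold higher in MI. The floor comes from other probes and no sham value was well above background, so this fold is not a lower bound. The limma adjusted p of Stc1, 0.0264, is no independent support, since the gene was retained only because it was well above background in MI. It did not pass after quantile normalization (limma adjusted p = 0.0502), with the vsn fit (0.528), with normexp (0.861), with no filter on detection (0.159) or without sham replicate 1 (0.0564). Pappa itself, which encodes PAPP-A, had a log2 fold change of 0.32 (limma adjusted p = 0.684). Igf2r, the receptor that clears IGF2, passed as lower after the 75th percentile scaling (-0.41, limma adjusted p = 0.0347) and not after the spike-in shift (-0.28, limma adjusted p = 0.642). Quantile normalization called no gene of this list. Pappa and Igf2r were named after their values were seen.

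Among 14 adaptors and phosphatases that act at the receptors, 1 was higher and none was lower. Sh2b2, an adaptor of the insulin receptor also called APS, read from 6.26 to 7.18 in sham mice and from 8.14 to 8.62 in MI mice. The groups were well apart, and the log2 fold change was 1.62 (SE 0.25, limma adjusted p = 0.000626) or 3.08-fold. Under the 75th percentile scaling 2 of the 14 were higher and 1 lower, beside 8.7% and 8.84% of all probes. The additional higher gene was Ptpn1, the phosphatase that removes phosphate from the insulin receptor (0.70, limma adjusted p = 0.00449), and the lower was Grb14, an adaptor that inhibits it (-0.94, limma adjusted p = 0.00186). After the spike-in shift these 2 genes, named after their values were seen, were at 0.83 (limma adjusted p = 0.0518) and -0.81 (limma adjusted p = 0.0662).

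Among 26 genes of the PI3K, Akt and mTOR cascade, 1 was higher and none was lower, with a median log2 fold change of 0.11, as over all probes. Pik3cg, the catalytic subunit p110γ that leukocytes express, read from 4.04 to 4.62 in sham mice and from 5.38 to 5.90 in MI mice (log2 fold change 1.40, SE 0.23, limma adjusted p = 0.00116). The call on this dim probe was lost with the vsn fit (log2 fold change 0.19, limma adjusted p = 0.139) and with normexp (0.38, limma adjusted p = 0.434). Marker genes of neutrophils were higher in the same MI mice, as given below for their whole list. The part of those cells in the change of Pik3cg was not tested. In the cascade 4 genes were higher and 2 lower after the 75th percentile scaling, beside 8.7% and 8.84% of all probes. Quantile normalization called 3 higher and 1 lower, and the vsn fit called none.

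Among 11 FoxO factors and their target genes, 1 was lower and none was higher. Fbxo32, which encodes the muscle ubiquitin ligase atrogin-1, read 10.67, 10.79, 11.07 and 11.26 in sham mice and 9.91, 8.98, 9.72 and 10.01 in MI mice. Every MI mouse was below every sham mouse. The same held after the 75th percentile scaling, where 12.7% of all probes had this order. After the spike-in shift Fbxo32 fell by 1.29 on the log2 scale (SE 0.26, limma adjusted p = 0.00621), 2.45-fold lower in MI. Over all probes 0.729% passed as lower after that shift. The median log2 fold change of the 11 genes was -0.20. After the 75th percentile scaling the median was -0.34, 5 of the 11 were lower (beside 8.84% of all probes) and none had a positive sign. The other 4 of these 5 were Bnip3, Sesn1, Ccng2 and Cdkn1b, named after their values were seen, with log2 fold changes from -1.10 to -0.58. None of these 4 passed after the spike-in shift.

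None of 6 genes between growth hormone and Igf1 passed after the spike-in shift by limma. At an unadjusted p under 0.05 there were 2, Cish and Socs2, and significance analysis of microarrays called 1, Cish. The brightest of the 6, Cish, a feedback inhibitor induced by STAT5, read from 13.24 to 13.39 in sham mice and from 13.72 to 14.36 in MI mice, without overlap (log2 fold change 0.67, SE 0.23, limma adjusted p = 0.110). With the 75th percentile scaling 2 of the 6 were higher and 2 were lower, beside 8.7% and 8.84% of all probes. The genes of this list that passed had limma adjusted p from 0.0238 to 0.0481. Of 4 genes listed for the Igf2 locus and the proteins that bind Igf2 mRNA, 1 could be tested. Igf2bp2 read from 7.45 to 8.22 in sham mice and from 9.16 to 9.56 in MI mice, and it was 2.77-fold higher (log2 fold change 1.47, SE 0.24, limma adjusted p = 0.00101).

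**Figure D3:**
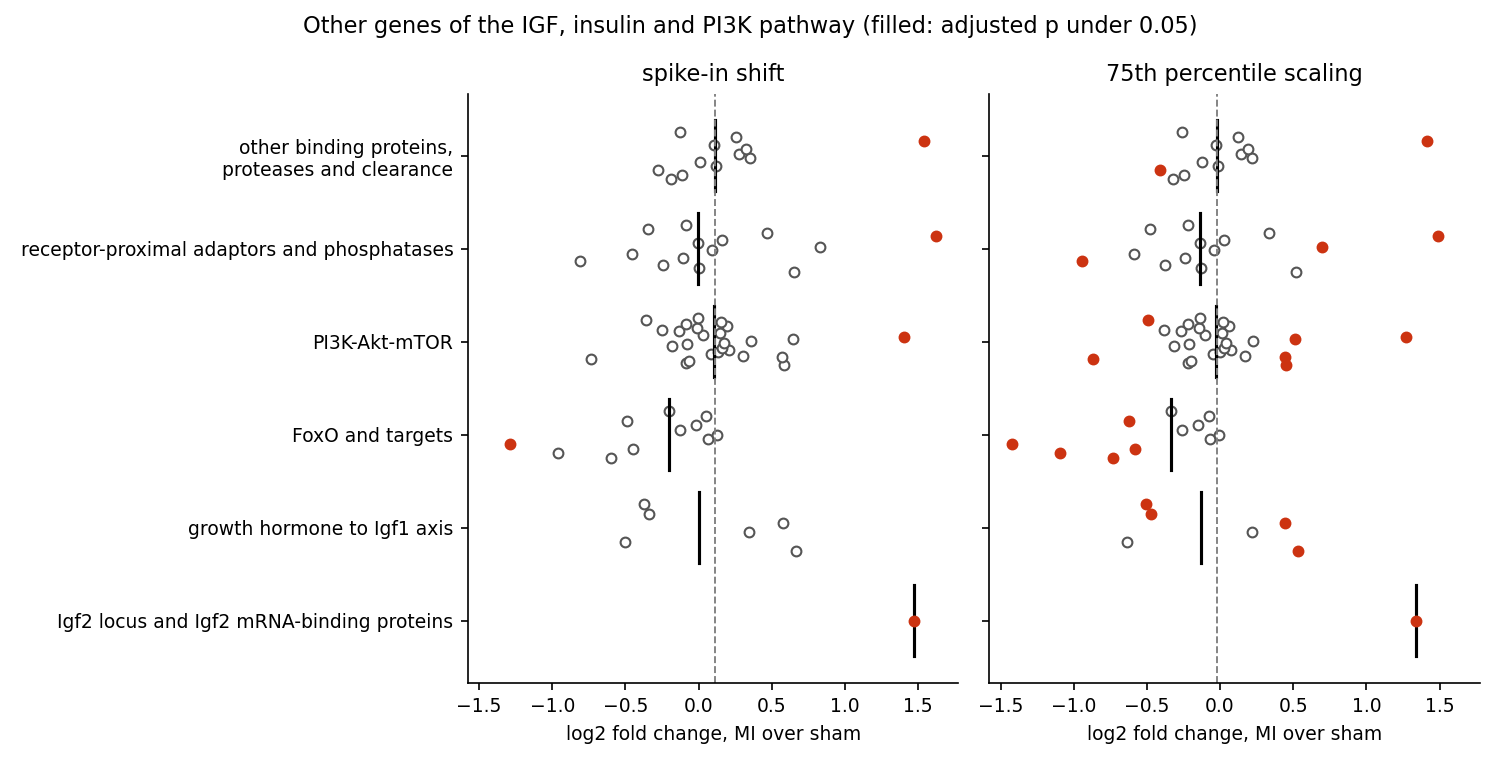
Log2 fold change, MI over sham, of each of 70 other pathway genes by list, after the spike-in shift (left) and after scaling to the 75th percentile (right). Filled points passed at adjusted p under 0.05, the black line is the list's median and the dashed line the median of all probes (0.11 and -0.02). The FoxO list lies to the left of the dashed line by its median in both panels.

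Marker genes of the cells of the heart were read in the same way, since whole ventricles were used. Of 7 neutrophil markers 5 were higher in MI, with a median log2 fold change of 3.03, and their summed linear signal was 231644 to 349849 in MI mice and 81173 to 120959 in sham mice. The probes of Csf3r and Itgam made up 64.4% to 74.4% of the sham sums, and which transcripts they read was not tested. Without them the sums were 165089 to 276236 in MI mice and 27508 to 30966 in sham mice. S100a9 was higher (2.79, limma adjusted p = 1.32e-06), whereas Csf3r stood at 0.09 (limma adjusted p = 0.905). Of 7 monocyte and macrophage markers 2 were higher, Cd14 (2.27, limma adjusted p = 0.000159) and Ccr2 (1.23, limma adjusted p = 0.00790). Csf1r stood at -0.15 and the sums, 16695 to 23852 in MI mice and 12420 to 19090 in sham mice, overlapped.

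After the spike-in shift no fibroblast marker of 8 passed (median -0.40, Dcn -0.37, Col1a2 -0.44), with sums of 46663 to 114936 in MI mice and 90301 to 144290 in sham mice. With the 75th percentile scaling none passed either, but the sums, 59227 to 95296 in MI mice and 105112 to 135420 in sham mice, did not overlap. Linear sums weigh the brightest gene most, here Dcn, which read at most 16.24 in MI mice and at least 16.27 in sham mice. Over all probes 12.7% had every MI mouse below every sham mouse under that scaling. Of the 8 fibroblast markers 1 had a positive sign. No endothelial marker of 8 passed after the spike-in shift (median -0.09, Fabp4 -0.21, Egfl7 -0.13), with sums of 131434 to 172310 and 133307 to 183917. Under the 75th percentile scaling 1 was higher, Pecam1 (0.53, limma adjusted p = 0.0389), and 1 lower, Flt1 (-0.37, limma adjusted p = 0.0471).

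Of 8 markers of pericytes and smooth muscle 1 was higher after the spike-in shift, Acta2 (1.47, limma adjusted p = 0.00431), while Tagln stood at -0.06, and the sums were 35765 to 55884 in MI mice and 26957 to 36340 in sham mice. Under the 75th percentile scaling Acta2 was again higher and 3 markers were lower, where 8.84% of all probes were. These markers were Abcc9 (-0.70, limma adjusted p = 0.00455), Rgs5 (-0.46, limma adjusted p = 0.0236) and Kcnj8 (-0.57, limma adjusted p = 0.0252). No cardiomyocyte marker of 8 passed after the spike-in shift by limma (median -0.10, Actc1 0.30, Myh6 -0.04), with sums of 1499841 to 2219141 in MI mice and 1567388 to 2220419 in sham mice. Under the 75th percentile scaling 1 was lower, Pln (-0.68, limma adjusted p = 0.00643). In each of the 3 lists with no call after the spike-in shift (fibroblasts, endothelial cells and cardiomyocytes), 1 marker had an unadjusted p under 0.05 and significance analysis of microarrays called none. Every marker that was retained, 46 in all, was well above background on all 8 arrays, among them the 8 cardiomyocyte markers. Retention itself required detection, and markers of other tissues were not read, so the cardiac label of the tissue was not tested. The part of these cell types in the change of Igfbp3 was not tested.

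**Figure D4:**
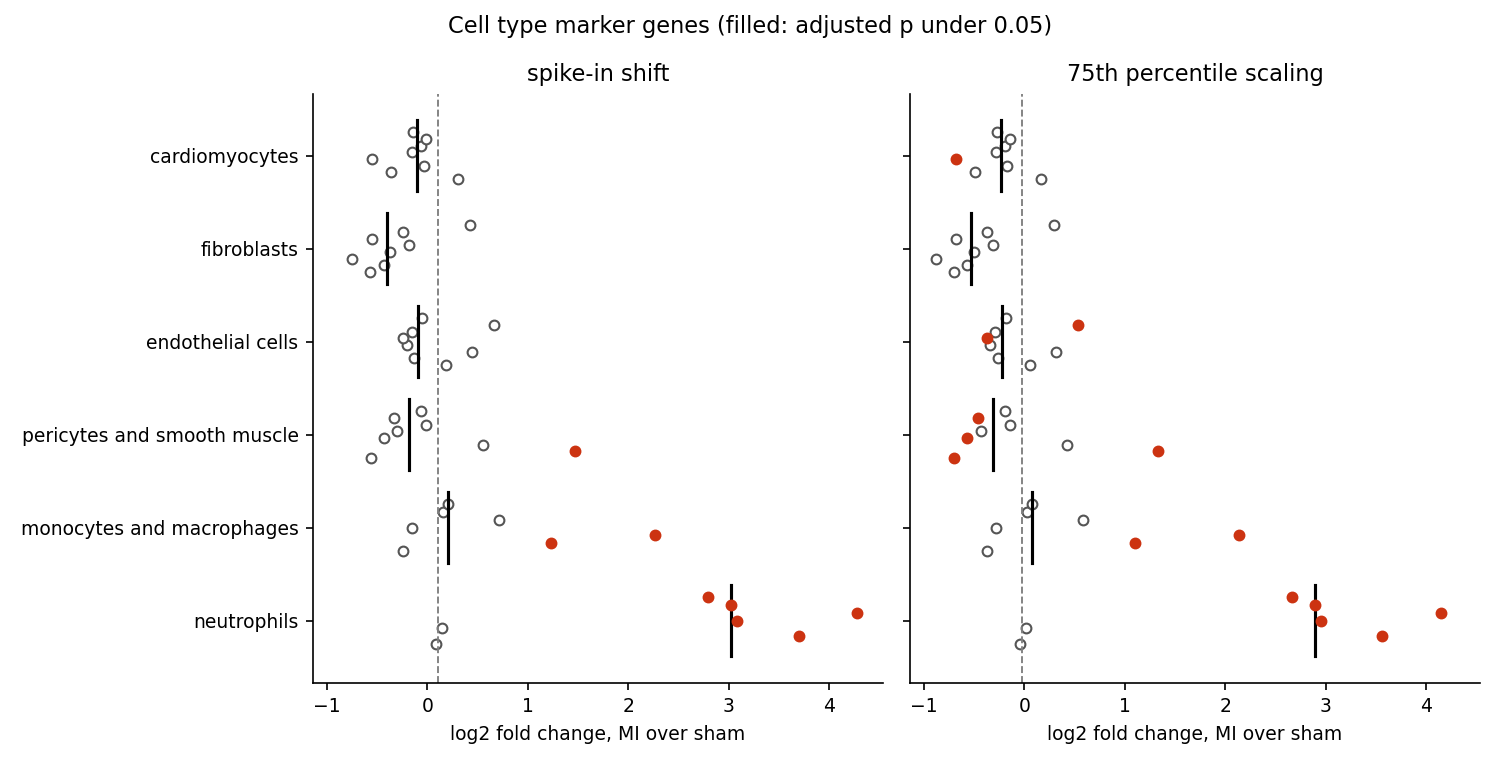
Log2 fold change, MI over sham, of each cell type marker gene by list, after the spike-in shift (left) and after scaling to the 75th percentile (right). Filled points passed at adjusted p under 0.05, the black line is the list's median and the dashed line the median of all probes. Neutrophil markers lie farthest to the right, with 5 of 7 passing.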

How the data were processed

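Total RNA of 8 ventricle samples was labelled in 1 colour (Cy3) and hybridised to Agilent SurePrint G3 mouse arrays, 1 sample per array, all on 1 slide scanned once. The authors extracted the spot intensity with Feature Extraction 11.0.1.1, per the file headers, which subtracts background and detrends each array. The deposited log2 values of the whole series were made by the authors with limma and vsn on spike-in probes, and were used here as an alternative. The members and gene lists were chosen with earlier results of these data known.

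From the processed signals, outlier spots flagged by the scanner software were dropped, replicate spots were averaged per probe after log2, and each array was shifted by the mean of 7 spike-in probes (234 spots). The vsn model fitted here gave additive constants near the median signal, so a shift with no constant was used for the main values. Probes well above background on at least 4 of 8 arrays were tested with limma 3.58.1 (R 4.3.3), MI against sham, with no covariate, and p-values were adjusted by Benjamini-Hochberg over all 34038 probes. The call was an adjusted p under 0.05 at any fold. The limma code was tested on simulated data. The number of arrays, 4 per group, limits the precision.

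Named genes were all members, from each pathway list up to 3 genes that passed in each direction by size of change or else the brightest gene, and the 2 brightest markers of each list. Other genes are said to be named after their values were seen (also Ccr2, Socs2, Itgam, Pecam1, Flt1, Abcc9, Rgs5, Kcnj8 and Pln). Alternatives were 75th percentile, quantile, vsn and normexp (offset 50) scalings, the deposited values, other filters on detection, the mean over a gene's probes, significance analysis of microarrays, the test that the methods name (here with all 70 permutations of the labels), blocks for replicate number and slide row, and each mouse left out. Promoter sequences came from RefSeq (GRCm38.p6). Apart from those of the Igfbp3 promoter window, gene coordinates were not used here, since the array design names another build. No protein sequence was used here.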

Additional observations from a re-analysis of the deposited data

How the results depend on the processing

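Igfbp3 passed under all 11 alternatives run for it, with log2 fold changes from 1.32 to 1.71, and with each of the 8 mice left out, from 1.48 to 1.88 (limma adjusted p from 0.000778 to 0.00353). The number of members that passed was 1, and 2 after 75th percentile scaling or quantile normalization, where Insr was added. It was 1 with any mouse left out after the spike-in shift. In settings chosen after seeing the data, it was 1 to 3 after the 75th percentile scaling with each mouse left out, and 1 with that scaling and either block, where Insr had a limma adjusted p of 0.0769 with the replicate block. The sign of Igfbp6 reversed after the 75th percentile scaling (-0.00461). Pathway genes that passed numbered 5, and 21 after the 75th percentile scaling or 18 after quantile normalization, 9 with significance analysis of microarrays and 16 with the replicate block. It was 5 to 6 with each mouse left out. Cish passed in 6 of the alternatives, and Stc1 and Pik3cg lost their calls in those given beside them.

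Over all probes 1858 passed, 1610 of them higher. The count was 5973 (2963 higher) after the 75th percentile scaling, 6142 (2988 higher) after quantile normalization, 1008 with no filter on detection, 3146 with significance analysis of microarrays and 4308 with the replicate block, and 1343 to 2253 with each mouse left out. The share of higher calls thus rests on the scaling, and the cause was not tested. For samples with the same replicate number, the correlations of their deviations over probes were 0.20, 0.04, -0.07 and 0.01. Of the 4 pairs 1 correlated best with its own number. These correlations ignore a level shared by a whole array. That level, the 75th percentile after the spike-in shift, was lowest in replicate 2 of both groups (-0.34 in MI, -0.38 in sham). It was highest in replicate 3 of both (0.27 and 0.15). The correlations thus cannot tell whether the numbers pair the mice. The replicate block changed no call of a member after the spike-in shift. With 4 arrays per group, a gene that did not pass may still have changed by an amount within its interval. The intervals are not limits of detection, since a call needed an adjusted p over all probes. After the spike-in shift Ptpn1, at 0.83, had an unadjusted limma p of 0.00288 and did not pass (limma adjusted p = 0.0518).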
